A study of Mus musculus with 19 samples.

Results

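The nuclear genes of the respiratory chain were followed across 19 RNA-seq libraries of mouse pluripotent stem cells. Of 23420 genes listed, 84 carried a symbol of the series used for subunits of the respiratory complexes and of ATP synthase. They comprised 36 Nduf genes of complex I, 4 Sdh genes of complex II, 9 genes of complex III (Uqcr and Cyc1), 18 Cox genes of complex IV and 17 Atp5 genes of complex V. The genes lay on 19 chromosomes, and 1 of them, Atp5sl, is carried in the annotation under the newer symbol Dmac2 and is now known as an assembly factor of complex I, not a subunit of ATP synthase.

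Each library was prepared from a single culture of induced pluripotent stem cells (iPSC), embryonic stem cells (ESC) or epiblast stem cells (EpiSC). The iPSC came from fibroblasts of pooled littermate embryos, infected with a lentivirus that expressed Oct4, Klf4, Sox2 and Myc constitutively and was never excised. Each iPSC library was 1 clone at passage 16 or later, depleted of feeder fibroblasts. NOD/ShiLtJ and WSB/EiJ gave 2 male and 2 female clones each in 2iS, a serum medium with LIF to which inhibitors of GSK3B and MEK are added. 129S1/SvImJ gave 2 male and 2 female clones in ESC/LIF, the same medium without the inhibitors, and the 2 male clones were sequenced again in 2iS at later passages. The 3 ESC lines, 1 per strain and all male, came from another laboratory and grew with serum, LIF and both inhibitors. The 2 EpiSC lines, a NOD/ShiLtJ male line and the male line FT129/4 (129/Sv), came from 2 further laboratories. Cell state and laboratory therefore cannot be told apart in any comparison with ESC or EpiSC, nor can medium with EpiSC. Sex, strain and passage differ as well, and their part was not tested. The iPSC include female clones, WSB/EiJ has no EpiSC line, and the ESC were at passage 6. The ESC medium also held both inhibitors, as did 2iS, but came from the other laboratory.

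The respiratory chain sits in the inner mitochondrial membrane. Complex I takes electrons from NADH and complex II takes them from succinate, complex III hands them to cytochrome c, and complex IV passes them to oxygen. The proton gradient built on the way drives complex V, the ATP synthase. Most subunits are encoded in the nucleus and imported, while a few catalytic subunits are encoded by mitochondrial DNA, whose genes were not analysed here. ESC are known to use oxidative phosphorylation together with glycolysis, whereas EpiSC, which resemble the later epiblast, are known to depend mainly on glycolysis.

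Between 6082886 and 16307859 read pairs aligned uniquely per library, but few of them were counted on genes, and that number differed between libraries. In 17 libraries 92996 to 226794 read pairs were counted on genes, or 1.15% to 1.74% of the uniquely aligned pairs. The 2 NOD/ShiLtJ male iPSC libraries, clones 3 and 35, stood apart with 567432 and 430173 counts and 5.62% and 5.59% of aligned pairs on genes. They were kept out of the comparisons of cell states, as in the paper, and are given separately below as NOD males. The paper's reasons were that NOD/ShiLtJ male iPSC tended to lose Chromosome Y and that these 2 appeared distinct in transcription. The smallest detectable level, taken as 3 counts, was 13.7 to 33.9 CPM in the 17 libraries and 3.53 and 4.56 CPM in the NOD males. CPM are counts scaled to a common library size after TMM, a normalisation that multiplies the library size by which counts are divided. Its factor was 0.683 in the 129 EpiSC, which raises CPM there, and up to 1.53 in the NOD males, which lowers them. The library kit keeps strand, but the strand setting of the counting is not given in the sources used here, so reads of a gene and of a gene overlapping it on the opposite strand cannot be told apart. Whether the counted strand was the gene's own, and whether the setting was the same in the NOD males as in the 17 other libraries, is likewise not given and was not tested. Such overlap with annotated exons applied to 24 of the 84 genes (28.6%), against 24.6% of all matched genes. The sample titles set the groups, because Y-chromosome counts contradicted the sex in the title for 0 libraries and that in other label fields for 10. By markers, the summed level of 10 naive pluripotency genes was 1480 to 2556 CPM in the 12 other iPSC, 1197 to 1887 in the ESC and 36.3 and 38.2 in the EpiSC.

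Among the 84 genes, 76 reached 10 counts in all libraries together, and Ndufs5, Cox6a2, Cox8b and Cox8c were at 0 in every library. The number at 0 in a given library ran from 5 to 20. For 16 genes a near-identical copy exists elsewhere in the transcriptome, so their counts could be split with that copy. Ndufs5, Atp5f1, Atp5c1 and Atp5o are among these 16. Replicates were separate clones, except that the 2 male 129S1/SvImJ clones stand among the 12 other iPSC in both media, and p-values measure the spread between these libraries. Without these clones in 2iS, 7 genes were still called between iPSC and EpiSC, the comparison with most calls among cell states.

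Genes of the respiratory chain are known targets of NRF1, GABPA and YY1, and the promoters were read for the core letters of these factors on both strands. RefSeq (GRCm38.p6) gave a promoter, 250 bases before to 50 after the start site, for 69 of the 84 genes. The NRF1 letters (GCGC, then any base, then TGCGC) occurred in 16 of the 69 promoters (23.2%), against 4.78% of 27025 promoters of all genes. The GABPA letters CCGGAAG occurred in 15 (21.7%), against 9.12% of all promoters, and the YY1 letters AAGATGGC in 10 (14.5%), against 2.88%. The median GC content of the 69 was 57.3%, with 19 CG dinucleotides, against 52.7% and 7 in all promoters. These letters are a description of sequence, not of binding.

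Shown here is the stretch upstream of Cox6a1, a complex IV subunit, because it had the largest positive fold change of the 48 tested genes in the NOD males. Beside it stand those of Uqcr10 (complex III) and Cox7b (complex IV), 2 of the genes lower in EpiSC. Capitals mark the NRF1 letters. The Cox6a1 stretch (chr5:115348982-115349208, minus strand) ends before the first annotated exon of Cox6a1. It includes exon bases of Gm42903, annotated on the opposite strand. The stretch held 2 matches, 1 read on either strand and 1 on the opposite strand only. The Uqcr10 (chr11:4704345-4704594, minus strand) and Cox7b (chrX:106015450-106015699, plus strand) stretches held none of the 3 motifs.
Cox6a1: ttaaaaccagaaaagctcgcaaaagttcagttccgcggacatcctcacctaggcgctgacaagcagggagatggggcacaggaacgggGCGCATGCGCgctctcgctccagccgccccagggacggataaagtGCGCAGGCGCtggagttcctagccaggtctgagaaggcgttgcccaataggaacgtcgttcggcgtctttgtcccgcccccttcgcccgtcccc
Uqcr10: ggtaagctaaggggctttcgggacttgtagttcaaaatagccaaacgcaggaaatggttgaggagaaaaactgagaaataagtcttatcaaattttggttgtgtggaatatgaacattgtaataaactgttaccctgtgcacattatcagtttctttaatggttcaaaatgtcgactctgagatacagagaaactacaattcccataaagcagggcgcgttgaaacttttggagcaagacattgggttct
Cox7b: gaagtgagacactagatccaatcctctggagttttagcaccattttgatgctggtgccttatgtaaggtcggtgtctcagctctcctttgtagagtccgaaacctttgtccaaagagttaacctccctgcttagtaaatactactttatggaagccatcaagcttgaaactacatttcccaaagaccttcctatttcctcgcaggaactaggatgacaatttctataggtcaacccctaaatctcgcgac

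The motifs were set beside the calls described below. Of the 7 genes lower in EpiSC than in iPSC, 5 had a promoter entry and 0 of these 5 held any of the 3 motifs. Of the 27 genes higher in the NOD males, 22 had a promoter and 14 held a motif, 6 with NRF1 letters, 7 with GABPA letters and 2 with YY1 letters. Among all 69 promoters, 36 held at least 1 motif.

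Respiratory chain genes took a small share of the gene counts, given here without TMM scaling. The share was 0.410% and 0.409% in the NOD/ShiLtJ and 129 EpiSC, and 0.516%, 0.561% and 0.594% in the NOD/ShiLtJ, WSB/EiJ and 129S1/SvImJ ESC. In the 12 other iPSC it ran from 0.608% through a median of 0.643% to 0.778%, and in the NOD males it was 0.999% and 1.02%. These 4 sets of libraries did not overlap in the unscaled share, and EpiSC lay lowest. The order depends on that scale, because the TMM factor was lowest in the 129 EpiSC and highest in the NOD males. Divided by the factor, the 129 EpiSC share lies above that of every ESC. The NOD male shares then lie within the range of the 12 other iPSC, while the NOD/ShiLtJ EpiSC stays lowest. The mean share was 1.19 times that of ESC and 1.62 times that of EpiSC in the 12 other iPSC (0.663% ± 0.0540, SD, n = 12). Over the 60 genes without opposite-strand exons the order was less clean: 0.176% and 0.110% in EpiSC, 0.177%, 0.230% and 0.276% in ESC, 0.214% to 0.329% in iPSC, and 0.697% and 0.704% in the NOD males. On these 60 genes the ESC and iPSC ranges overlapped, and the NOD/ShiLtJ ESC was hardly above the NOD/ShiLtJ EpiSC. In whole-culture RNA, fewer cells expressing a gene and less RNA per cell cannot be told apart.

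**Figure D1:**
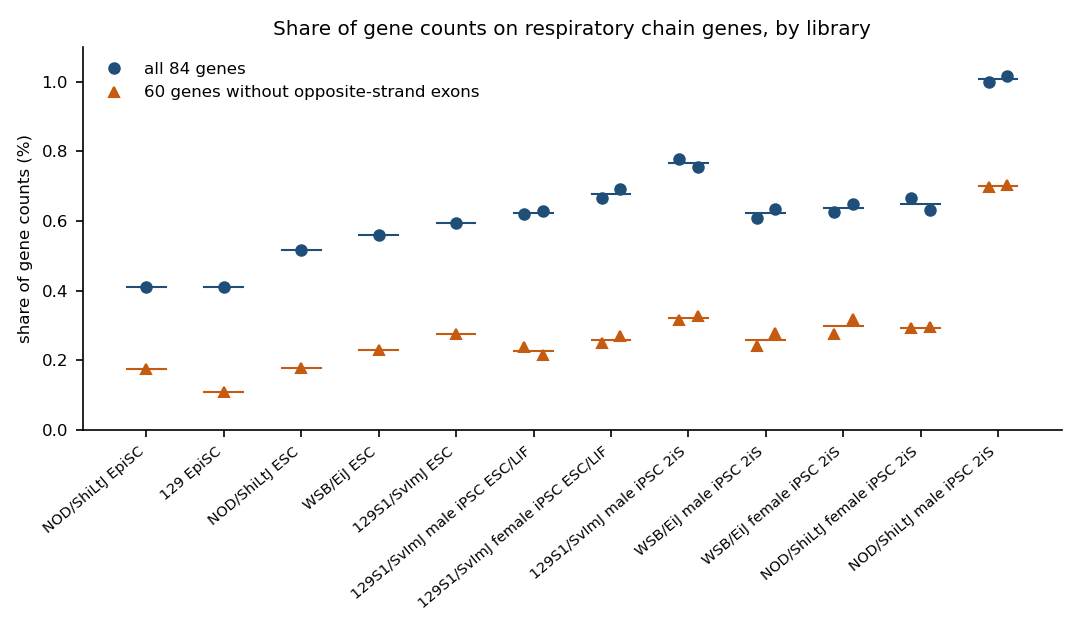
Share of gene counts (%, vertical axis) on the respiratory chain genes in each library, by group of strain, sex, cell state and medium; circles are all 84 genes, triangles the 60 without opposite-strand exons, and bars group means. Shares are not scaled by TMM. On this scale the EpiSC circles lie at 0.410 and 0.409, the lowest, and the NOD males at 0.999 and 1.02, the highest.

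Complex V held the largest part of this share in every library, 0.268% to 0.510% of gene counts. In the 17 libraries its most abundant gene was Atp5f1, which encodes subunit b of the ATP synthase stalk. Atp5f1 made up 35.8% of the counts on all 84 genes in the 17 libraries but 4.42% in the NOD males. Its exons overlap those of Wdr77 and Gm42890 on the opposite strand over 8.21% of their length. Per kilobase of exon, the mean level of Atp5f1 in the 17 libraries was 560 CPM/kb, ahead of Atp5j (coupling factor 6) at 151 and Atp5b (catalytic beta subunit) at 144 CPM/kb. In the NOD males the same per-length level was 73.3 for Atp5f1, 41.1 for Atp5j and 263 CPM/kb for Atp5b, and Cox6a1 was the highest at 294 CPM/kb. Both Atp5f1 and Atp5j have opposite-strand exons and Atp5b has none.

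The comparison of iPSC with EpiSC asked how reprogrammed cells stand against primed pluripotent cells. Of 32 respiratory chain genes that passed the filter on low counts, 7 were higher in iPSC and 0 lower (edgeR quasi-likelihood test, Benjamini-Hochberg adjusted p under 0.05). Over all 3986 genes tested, 28.5% were called, 12.1% higher and 16.4% lower in iPSC. The 7 genes (21.9% of 32) comprised the ATP synthase core Atp5a1 and Atp5b, Uqcr10 of complex III, Cox4i1, Cox5a and Cox7b of complex IV, and Ndufa4, counted with complex I by its name although the protein is now known as a subunit of complex IV. The median log2 fold change of the 32 was 0.82, against 0.13 for all genes, and 30 of the 32 were above 0. The filter drops genes low in most libraries, so these counts describe tested genes and not all 84.

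Atp5b encodes the catalytic beta subunit. It measured 384 CPM in the NOD/ShiLtJ and 329 CPM in the 129 EpiSC, and 448, 497 and 692 CPM in the NOD/ShiLtJ, WSB/EiJ and 129S1/SvImJ ESC. The 12 iPSC ran from 505 through a median of 629 to 882 CPM. Both EpiSC lay below every iPSC and every ESC library, and Atp5b was higher in iPSC by 0.93 on the log2 scale (SE 0.246, edgeR adjusted p = 0.00752).

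Atp5a1 encodes the alpha subunit, its partner in the catalytic head. Its level was 182 and 191 CPM in the NOD/ShiLtJ and 129 EpiSC, 260, 284 and 295 CPM in the ESC, and 283 to 483 CPM with a median of 343 in the iPSC. Again neither EpiSC reached the other libraries, and the iPSC excess for Atp5a1 was 0.97 (log2, SE 0.265, edgeR adjusted p = 0.00943). A part of its exons, 4.11%, overlaps exons of Haus1 on the opposite strand, whereas Atp5b has no such neighbour.

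Uqcr10, a small subunit of complex III, had the largest fold change of the 7. Only 4 reads in the NOD/ShiLtJ EpiSC (20.8 CPM) and 1 in the 129 EpiSC (7.64 CPM) fell on it. ESC had 53.8, 26.6 and 60.4 CPM and the iPSC 33.9 to 141 CPM. The EpiSC lay below all of them, and Uqcr10 was 2.22 log2 units higher in iPSC (SE 0.57, edgeR adjusted p = 0.00611). With 1 to 4 counts per EpiSC library, the size of this difference is uncertain.

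In complex IV, Cox4i1, the usual form of subunit 4, measured 46.7 and 38.2 CPM in EpiSC, 26.9, 106 and 121 CPM in ESC, and 48.7 to 188 CPM with a median of 120 in iPSC. Only the NOD/ShiLtJ ESC fell below the EpiSC. The gap between EpiSC and iPSC was narrow, 46.7 CPM in the NOD/ShiLtJ EpiSC against 48.7 CPM in the lowest iPSC. Cox4i1 was higher in iPSC by 1.52 (log2, SE 0.484, edgeR adjusted p = 0.0229), and it has opposite-strand exons of Emc8.

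Ndufa4 measured 25.96 and 15.3 CPM in the EpiSC, 17.9, 71.0 and 20.15 CPM in the ESC and 45.2 to 114 CPM in the iPSC. No iPSC library overlapped the EpiSC, while 2 of the 3 ESC were at the EpiSC level. The 129 EpiSC and NOD/ShiLtJ ESC values lie under the 3-count limit of their libraries, 22.9 and 26.9 CPM. The iPSC excess of Ndufa4 was 1.79 (log2, SE 0.502, edgeR adjusted p = 0.0111).

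Cox5a and Cox7b, which encode further complex IV subunits, overlapped between iPSC and EpiSC. For Cox5a, which has opposite-strand exons of Gm26631, the EpiSC had 20.8 and 7.64 CPM, the ESC 62.7, 35.5 and 67.2 CPM and the iPSC 11.3 to 96.5 CPM, with a fitted excess of 1.93 (log2, SE 0.626, edgeR adjusted p = 0.0254). For Cox7b the EpiSC had 51.9 and 7.64 CPM, the ESC 35.8, 62.1 and 87.3 CPM and the iPSC 45.2 to 142 CPM, with an excess of 1.65 (log2, SE 0.498, edgeR adjusted p = 0.0168). In both genes the 129 EpiSC was lower than the NOD/ShiLtJ EpiSC and lay below every iPSC library. Its 7.64 CPM in both genes lies under the smallest detectable level of that library, 22.9 CPM. The lowest iPSC value of Cox5a, 11.3 CPM, is also under this level, which was 13.7 to 33.9 CPM in the 17 libraries. For Cox5a the order of the 129 EpiSC and the lowest iPSC is therefore uncertain. Cox7b lies on the X chromosome, and the iPSC include female clones whereas the EpiSC are male. The part of sex in its difference was not tested.

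**Figure D2:**
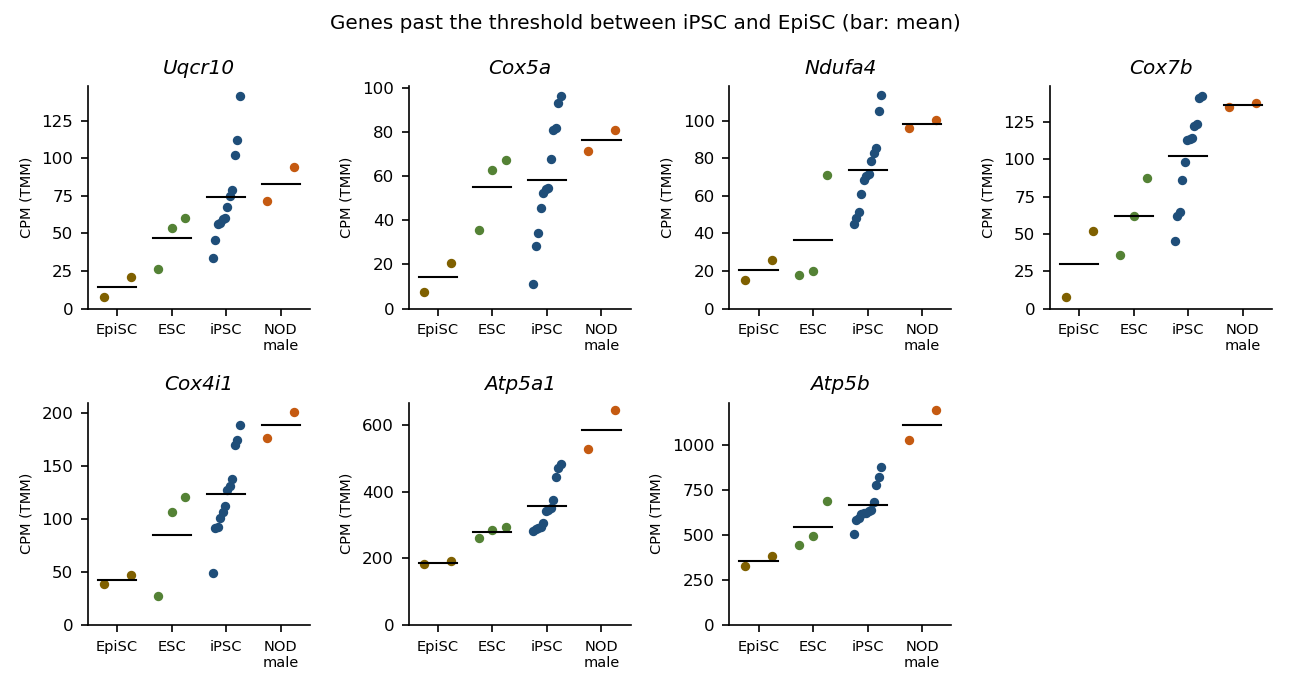
Level (CPM after TMM, vertical axis) of the 7 genes higher in iPSC than in EpiSC; each point is a library of EpiSC (2), ESC (3), the 12 other iPSC or the NOD males (2), and bars are means. The EpiSC points of Atp5a1 (182 and 191) and Atp5b (384 and 329) lie below all others, whereas those of Cox5a and Cox7b overlap the iPSC.

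DESeq2 called 5 respiratory chain genes here, against 12.2% of all genes. Calls for single genes leaned on both EpiSC libraries. Without the NOD/ShiLtJ EpiSC 4 respiratory chain genes were called (Atp5b, Atp5c1, Cox7b and Uqcr10), and without the 129 EpiSC only Ndufa7 was. Every iPSC lay above every EpiSC library for 5 of the 32 tested genes (15.6%), Atp5a1, Atp5b, Cox4i1, Ndufa4 and Uqcr10, against 9.56% of all tested genes. Of these, Cox4i1 was separated narrowly, and Ndufa4 and Uqcr10 rest on few reads in the EpiSC. The share of aligned pairs on genes moved with this comparison, 1.36% and 1.29% in the EpiSC and 1.41% to 1.74% in the iPSC, and its part in the result was not tested. With aligned pairs in place of gene counts as library size, 18 of the 32 genes were called higher and 0 lower, against 27.1% of all genes called higher, while the median of all genes moved from 0.13 to 0.62 and the higher share of all calls from 42.5% to 76.9%.

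The share of genes called differed with opposite-strand overlap. Among all tested genes without opposite-strand exons, 16.4% were higher in iPSC than in EpiSC and their median log2 fold change was 0.45. Of the 22 respiratory chain genes without such exons, 4 (18.2%) were higher, a share near that background, and their median was 0.85. Among all genes with opposite-strand exons, 7.70% were higher, 25.9% were lower and the median was -0.23, whereas 3 of the 10 respiratory chain genes with them were higher, 0 lower, and their median was 0.50.

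Other abundant subunits did not pass the test against EpiSC. The log2 difference was -0.02 for Atp5f1, 0.21 for Atp5j, 0.54 for Ndufs1 (the large iron-sulfur subunit of complex I), 0.57 for Sdha (the flavoprotein of complex II), 0.17 for Uqcrh and 1.02 for Uqcrc1 (complex III), and 0.83 for Cox6b1 (complex IV). Uqcrc1 came closest of these, with an adjusted p of 0.0925 in edgeR, from 41.5 and 68.8 CPM in EpiSC and 51.6 to 192 CPM in iPSC. Sdha measured 36.3 and 107 CPM in the EpiSC and 48.7 to 150 CPM in the iPSC, so the NOD/ShiLtJ EpiSC lay below the iPSC range and the 129 EpiSC within it. Complex II was otherwise thinly covered: Sdhb had 31.2 and 22.9 CPM and Sdhd 25.96 and 45.8 CPM in EpiSC, from 3 to 6 counts each, and neither was tested.

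ESC were next set against EpiSC, a comparison that shares the EpiSC libraries with the preceding one. None of the 32 genes passed (0 of 32), against 14.9% of all tested genes, and 7 had an unadjusted p under 0.05 in edgeR. DESeq2 also called 0, against 8.9% of all genes. With aligned pairs as library size only Atp5j was called, against 13.5% of all genes. The median log2 difference was 0.64, against 0.11 for all genes, and 25 of the 32 were above 0. For the genes described above the ESC excess was 0.67 for Atp5b (edgeR adjusted p = 0.113), 0.65 for Atp5a1 (0.161), 1.65 for Uqcr10 (0.106), 1.87 for Cox5a (0.0838), 1.05 for Cox4i1, 0.98 for Cox7b and 0.75 for Ndufa4. With 3 ESC and 2 EpiSC libraries, a p that misses the threshold does not show that the levels were equal.

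iPSC differed from ESC in 6.27% of all tested genes, and again in 0 of the 32 respiratory chain genes. In edgeR 3 of the 32 had an unadjusted p under 0.05, and DESeq2 called 0, against 2.19% of all genes. With aligned pairs as library size only Atp5f1 was called, against 8.18% of all genes. The median difference was 0.23, against 0.04 for all genes. The largest was in Cox7a2, a complex IV subunit, at 2.29 (log2, SE 0.847, edgeR adjusted p = 0.124). Cox7a2 was at 0 CPM in the NOD/ShiLtJ and 129S1/SvImJ ESC, 26.6 CPM in the WSB/EiJ ESC, and 11.3 to 81.0 CPM with a median of 42.4 in iPSC. Without the WSB/EiJ ESC, Cox7a2 and Ndufa4 were called higher in iPSC. Markers of fibroblasts moved with this comparison: the summed level of 11 such genes was 717 to 1356 CPM in ESC and 0 to 86.0 CPM in iPSC, with Dcn at 0 in all ESC and Col1a2, Thy1, Postn and Tnc at 0 in all 12 iPSC. In the EpiSC it was 67.5 (NOD/ShiLtJ) and 367 CPM (129), and in the NOD males 19.99 and 36.5 CPM. The part of fibroblast RNA in the ESC and EpiSC values was not tested.

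The NOD males gave the most calls of the 7 comparisons, among respiratory chain genes and among all genes. Against the 10 iPSC of the same design (WSB/EiJ and NOD/ShiLtJ female clones in 2iS, 129S1/SvImJ clones in ESC/LIF), 30 of 48 tested genes were called, 27 higher and 3 lower. Of all 4784 genes tested, 59.1% were called, 32.5% higher and 26.6% lower. The median log2 difference was 0.77 for the 48, against 0.27 for all genes. The filter asks for counts in only as many libraries as the smallest group holds, 2 here. A gene can therefore be tested through the NOD males alone, which favours higher calls among the 48 and among all genes. The fit of iPSC without the NOD males tested 29 respiratory chain genes. How many calls entered in this way was not tested. The share of aligned pairs on genes moved with this comparison, as given above. Clone, library and any difference in counting cannot be told apart, so each NOD male difference below may carry all of them. The 2 libraries are separate clones of the same strain and sex.

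Calls came from every complex. In complex I, 11 of 18 tested genes passed, 10 of them higher. In complex II both Sdha and Sdhb of 3 tested were higher, in complex III 3 of 7 were higher and in complex IV 5 of 7 were higher. In complex V, 9 of 13 were called, 7 higher and 2 lower. Both NOD males lay above all 10 other iPSC for 17 of the 48 tested genes (35.4%), against 14.9% of all tested genes. The filter described above bears on both shares.

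The largest excess was in Cox6a1, the form of subunit 6a used outside muscle and heart. It measured 221 and 192 CPM in NOD male clones 3 and 35, and 30.3 to 94.6 CPM with a median of 44.0 in the 10 other iPSC. The sets were far apart, and the difference was 2.08 (log2, SE 0.226, edgeR adjusted p = 5.85e-09). EpiSC (31.2 and 30.6 CPM) and ESC (44.8 to 71.0 CPM) stood at the level of the other iPSC.

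Cox6b1, a subunit at the interface of complex IV dimers, measured 194 and 125 CPM in the NOD males and 20.3 to 102 CPM in the other iPSC, without overlap. Its difference was 1.56 (log2, SE 0.273, edgeR adjusted p = 1.74e-05). Cox8a, the widely used form of subunit 8, had 75.3 and 86.7 CPM in the NOD males against 20.2 to 49.7 CPM, and was 1.37 higher. Cox4i1 and Cox7a2 were higher by 0.86 and 0.76 on the log2 scale.

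In complex III, Uqcrc1, a core subunit facing the matrix, had 208 and 211 CPM in the NOD males and 51.6 to 121 CPM with a median of 94.4 in the 10 others. The difference was 1.31 (log2, SE 0.209, edgeR adjusted p = 5.12e-06). Uqcrh, the hinge protein, was 136 and 137 CPM against 43.6 to 102 CPM and was 1.12 higher, and Cyc1, cytochrome c1, was 0.79 higher. Uqcr10, which was low in EpiSC, differed by 0.35 and did not pass (edgeR adjusted p = 0.276).

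Among complex I genes, Ndufv3 measured 116 to 141 CPM in the NOD males and 25.8 to 86.4 CPM in the others, and Ndufb8 132 to 154 CPM against 25.8 to 92.2 CPM. Neither gene overlapped between the sets. Their log2 differences were 1.41 and 1.40, and those of other genes called higher were Ndufa6 (1.32), Ndufs8 (1.28), Ndufb9 (1.24), Ndufa7 (1.17), Ndufa13 (1.15), Ndufa10 (0.93) and Ndufv1 (0.80). Ndufs8 and Ndufv1 belong to the core that carries electrons, and the others named here are accessory subunits. Ndufs8, Ndufa10 and Ndufv1 overlapped between the sets, Ndufv1 with 72.9 and 73.0 CPM against 17.2 to 96.5 CPM.

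Complex II followed with smaller differences. Sdha had 174 and 123 CPM in the NOD males against 48.7 to 150 CPM and differed by 0.77 (edgeR adjusted p = 0.00719). Sdhb, the iron-sulfur subunit, had 61.2 and 57.8 CPM against 28.4 to 59.0 CPM and differed by 0.76 (edgeR adjusted p = 0.0344), a call lost under 11 of 16 alternatives. Sdhd, a membrane anchor, differed by 0.38 and did not pass.

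In the ATP synthase, Atp5b was at 1196 and 1032 CPM in the NOD males and 505 to 826 CPM in the 10 others, 0.91 higher (SE 0.152, edgeR adjusted p = 8.92e-06). Atp5a1 was at 644 and 528 CPM against 283 to 483 CPM, 0.92 higher. Atp5d, the delta subunit of the central stalk, was 1.34 higher at 112 to 161 CPM against 22.6 to 94.6 CPM. The stalk, ring and membrane subunits Atp5e (1.19), Atp5o (1.18), Atp5g3 (1.04) and Atp5j2 (0.67) were also higher.

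The 3 genes that were lower when scaled to gene counts all have opposite-strand exons (coordinates on GRCm38). They are Atp5f1 (chr3:105942698-105960099, minus strand), Atp5j (chr16:84827866-84835625, minus strand) and Ndufs1 (chr1:63143596-63176833, minus strand). Atp5f1 fell from 1660 to 2835 CPM in the 10 other iPSC to 249 and 353 CPM, a log2 difference of -2.81 (SE 0.191, edgeR adjusted p = 1.32e-12). Atp5j fell from 378 to 587 CPM to 123 and 134 CPM, a difference of -1.71 (SE 0.198, edgeR adjusted p = 1.88e-08). Ndufs1 was at 57.6 and 56.3 CPM against 60.2 to 141 CPM, a difference of -0.63 (SE 0.258, edgeR adjusted p = 0.0373). The NOD males lay below every one of the 10 libraries for all 3 genes, as in 20.9% of all tested genes. With uniquely aligned pairs as library size all 48 genes were called, as were 84.4% of all genes, and Atp5j and Ndufs1 turned to 0.69 and 1.76 higher, while the median of all genes moved from 0.27 to 2.66 and the higher share of all calls from 55.02% to 96.4%. The 27 genes called higher kept their direction under each alternative run.

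Mean CPM of aligned pairs, in place of gene counts and without TMM, show the same genes off that scale. Atp5f1 had 31.5 in the other 17 and 25.6 in the NOD males (0.812-fold), Atp5j had 6.48 and 10.9 (1.68-fold) and Ndufs1 1.22 and 4.83 (3.97-fold). By contrast Atp5b had 8.68 and 94.4 (10.9-fold) and Cox6a1 0.772 and 17.5 (22.6-fold). Over the 37 genes with at least 100 counts and no opposite-strand exons the fold ran from 5.28 to 22.6, with a median of 10.5, and over the 14 with such exons from 0.812 to 15.0, with a median of 7.16. Atp5f1 was the lowest of these 51 genes and Cox6a1 the highest.

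The shares called again differed with opposite-strand overlap. Among all genes without it, 41.6% were higher and 8.75% lower in the NOD males (median 0.50), against 22 of 35 respiratory chain genes higher (62.9%), 0 lower and a median of 0.79. Among all genes with it, 21.2% were higher and 48.4% lower (median -0.61), against 5 of 13 respiratory chain genes higher (38.5%), 3 lower (23.1%) and a median of 0.48. Wdr77, which overlaps Atp5f1, was at 91.2 and 91.7 CPM in the NOD males and 20.8 to 138 CPM in the 17 libraries without them. Gabpa, which overlaps Atp5j and encodes the GABPA factor named above, was at 86.7 and 103 CPM against 111 to 329 CPM. The part of opposite-strand reads in these values was not tested.

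**Figure D3:**
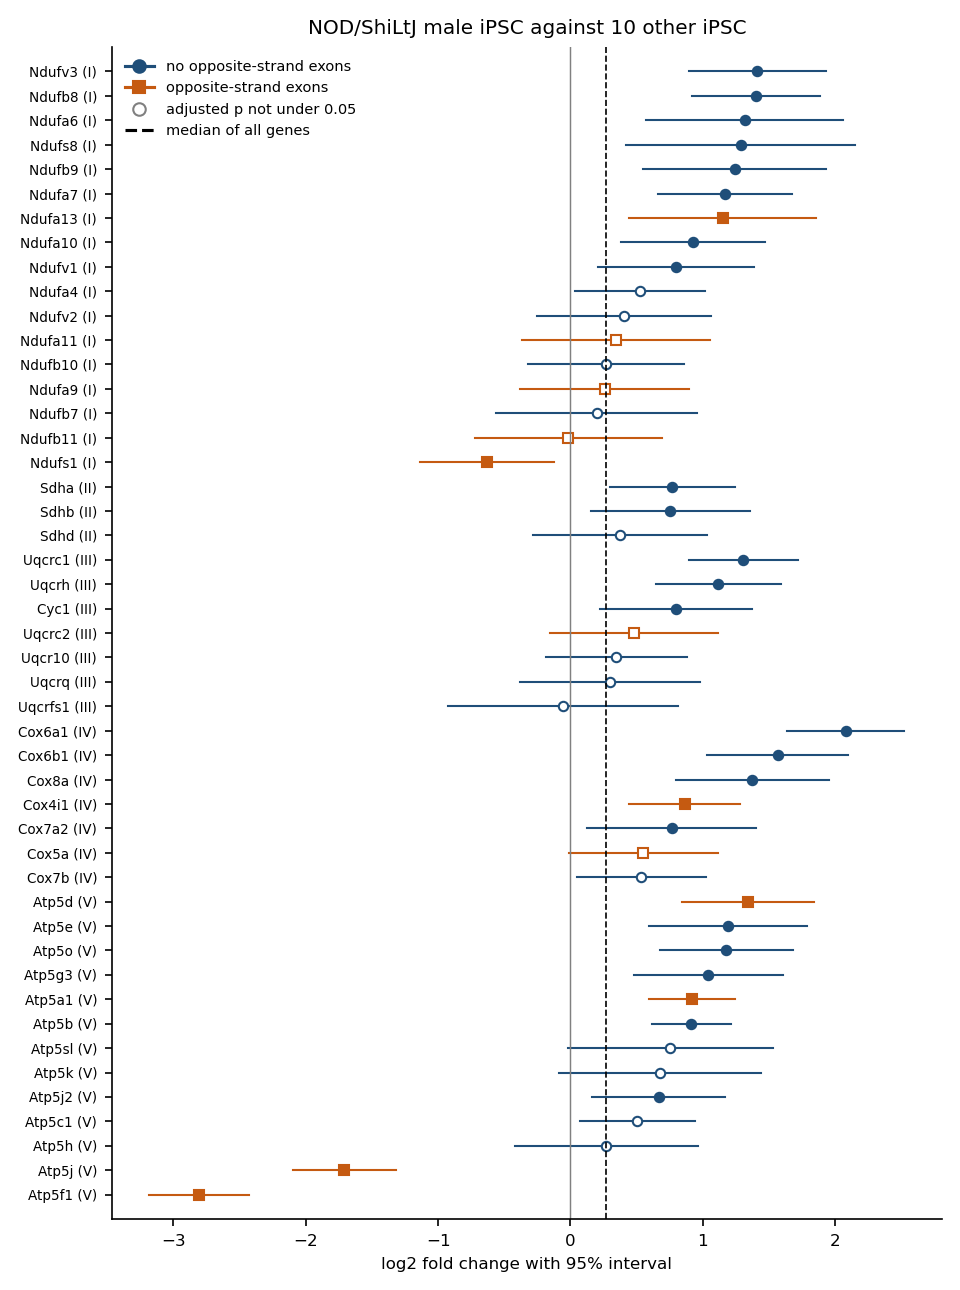
Log2 fold change with an approximate 95% interval (horizontal axis) of 47 of the 48 tested respiratory chain genes in the NOD males against 10 other iPSC. Squares have opposite-strand exons, open symbols were not called, and the dashed line is the median of all genes (0.27). Cox6a1 leads at 2.08, and the 3 genes called lower, Atp5f1, Atp5j and Ndufs1, are squares.

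DESeq2 called fewer in this comparison, 10 respiratory chain genes, of which 8 were higher, against 4.62% of all genes called higher by DESeq2. Leaving out each library in turn gave 21 to 34 calls. Atp5a1, Atp5b, Atp5d, Atp5f1, Cox6a1, Cox6b1, Ndufb8, Ndufv3 and Uqcrc1 kept their direction and stayed past the threshold in all 16 alternatives run. The calls of Sdhb, Ndufs1, Cox7a2, Atp5j2 and Ndufv1 were the least stable, lost under 7 to 11 of the 16.

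Strain was compared between clones of 1 sex grown in the same medium, to ask how genetic background relates to expression. NOD/ShiLtJ female and WSB/EiJ female iPSC in 2iS differed in 3.98% of all tested genes and in 0 of 29 respiratory chain genes. Neither edgeR, with 0 genes at an unadjusted p under 0.05, nor DESeq2, with 3.67% of all genes called, called any, and the median difference was -0.08. The extremes were Ndufb10 at -1.24 (SE 0.664) and Cox6b1 at 1.06 (SE 0.572), and neither passed (edgeR adjusted p = 0.384 and 0.387). 129S1/SvImJ male and WSB/EiJ male iPSC in 2iS differed in 4.96% of all genes and in 0 of 29 respiratory chain genes, with 3 at an unadjusted p under 0.05 in edgeR and 0 called by DESeq2 (1.84% of all genes). Here the median was 0.39, and 21 of the 29 were higher in 129S1/SvImJ. Cox4i1 differed most, with 131 and 188 CPM in 129S1/SvImJ clones 1 and 17 and 48.7 and 101 CPM in WSB/EiJ clones 12 and 25 (log2 difference 1.20, edgeR adjusted p = 0.115).

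Medium was compared within the 129S1/SvImJ male clones, sequenced in ESC/LIF at passages 21 and 20 and in 2iS at passages 31 and 30. The share of gene counts on all 84 genes was 0.619% and 0.628% in ESC/LIF and 0.778% and 0.755% in 2iS for clones 1 and 17, a ratio of 1.23. Of all tested genes 3.98% were called, and of the 29 respiratory chain genes 0. In edgeR 4 had an unadjusted p under 0.05, all higher in 2iS, and DESeq2 called 0 (1.45% of all genes). The median difference was 0.55, against 0.00 for all genes, and 25 of the 29 were above 0. Without opposite-strand exons the median was 0.56, against 0.07 for all such genes, and with them 0.50, against -0.06.

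Atp5a1 went from 283 to 472 CPM in clone 1 and from 305 to 445 CPM in clone 17 (log2 difference 0.64, edgeR adjusted p = 0.244). Atp5b went from 599 to 778 and from 587 to 882 CPM (0.47, edgeR adjusted p = 0.346). Atp5c1, the gamma subunit that turns within the head, went from 82.3 to 184 and from 79.1 to 158 CPM (1.05, edgeR adjusted p = 0.176). Uqcrc1 went from 82.3 to 192 and from 113 to 188 CPM (1.02, edgeR adjusted p = 0.184). In all 4 genes both clones were higher in 2iS, and the 2 media did not overlap. That was so for 14 of the 29 genes (48.3%), against 22.2% of all tested genes with both 2iS libraries above both ESC/LIF libraries. The same 2 libraries in 2iS also had a higher share than clones of other strains in 2iS. Those shares were 0.608% to 0.666% in the WSB/EiJ and NOD/ShiLtJ female clones. Passage and medium cannot be told apart in this comparison, and with the clone as a block the count of respiratory chain genes called was still 0.

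**Figure D4:**
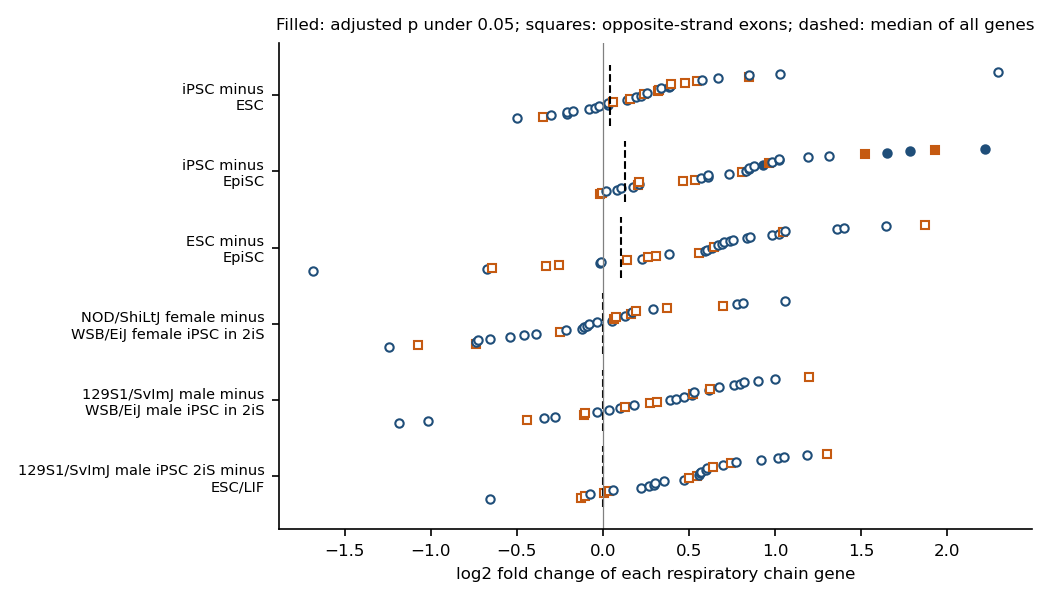
Log2 fold change (horizontal axis) of each tested respiratory chain gene in the 6 comparisons other than that of the NOD males. Filled symbols were called, squares have opposite-strand exons, and dashed lines are medians of all genes. The 7 filled symbols are all in iPSC minus EpiSC, where the median of the genes was 0.82 against 0.13 for all genes.

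Some subunits have forms restricted to certain tissues, and these were rare. Cox6a2, Cox8b and Cox8c, the muscle, brown fat and testis forms of subunits 6a and 8, were at 0 in all 19 libraries, and Cox7b2 had 4 counts in all. Cox4i2, the oxygen-responsive form of subunit 4, had 15 counts in all, with 0 in both EpiSC and 0 to 11.3 CPM in the 12 other iPSC. Cox7a1, the heart and muscle form, had 61 counts in all. It was at 0 in both EpiSC, at 35.8, 0 and 40.3 CPM in the NOD/ShiLtJ, WSB/EiJ and 129S1/SvImJ ESC, and at 0 to 87.2 CPM in iPSC, the highest being NOD/ShiLtJ female clone 52. Cox6b2, known from testis, was more evenly spread, with 36.3 and 15.3 CPM in EpiSC, 0 to 32.2 CPM in the 12 iPSC and 27.1 and 42.6 CPM in the NOD males. A level of 0 allows up to the 3-count limit given above, on the same CPM scale.

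Other mitochondrial gene lists were read on the same scale. Of 14 enzymes of the citric acid cycle, which supplies NADH and succinate to complexes I and II, 11 were tested in the NOD males and 8 were higher, against 32.5% of all genes, among them Idh2 by 1.91 and Mdh2 by 1.23 on the log2 scale. The list's median was 0.97, and 1 of the 8 has opposite-strand exons. Against EpiSC 0 of 10 tested enzymes were called, with a median of 0.63. Of 54 assembly factors, proteins that build the complexes without staying in them, 44 were listed. In the NOD males 8 of 14 tested were lower, against 26.6% of all genes, and 1, Lrpprc, was higher by 0.62, while 3 of the 8, Cox15, Surf1 and Ttc19, turned positive with aligned pairs as library size. All 8 lower factors have opposite-strand exons, and of all tested genes with such exons 48.4% were lower in the NOD males. In iPSC against EpiSC 4 of 13 factors were lower, against 16.4% of all genes: Cox11 (-1.08), Cox20 (-0.85), Sco2 (-0.86) and Tmem126a (-1.86). Of these, 3 have opposite-strand exons, and 25.9% of all tested genes with such exons were lower. ESC had Cox11 (-1.58) and Sco2 (-0.82) lower than EpiSC, both with opposite-strand exons, and iPSC and ESC differed in 0 of 13. Oxa1l, which also has opposite-strand exons, was lower in 129S1/SvImJ than in WSB/EiJ male iPSC (-2.50) and in 2iS than in ESC/LIF (-4.57), 1 of 12 in each. Of 22 regulators of mitochondrial gene expression, 16 were listed and 9 tested in the NOD males, with Nrf1 (0.94), Polrmt (1.40) and Pprc1 (1.35) higher and Gabpa (-0.68), Polg (-2.11) and Ssbp1 (-2.29) lower, the last 3 turning positive with aligned pairs as library size. The other 6 comparisons called 0 regulators. Cytochrome c, listed as 2 genes, passed the filter in none of the comparisons.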

How the data were processed

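RNA was sequenced as paired reads from stranded poly(A) libraries of 19 cultures. Per the labels and the submitters' processing notes, the authors used Trimmomatic, TopHat2 2.1.1, HTSeq and DESeq2 with GRCm38 (mm10). The deposited values are raw counts of read pairs per gene, 1 table per library, with the pairs that fell on no gene listed separately and left out here. The strand setting and annotation of the counting are not given in the sources used here. Samples were grouped by title, since titles and source names gave the same condition in 0 of 19 samples.

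Genes were tested on the counts with edgeR 4.0.16 in R 4.3.3 (TMM, filterByExpr, quasi-likelihood F test, Benjamini-Hochberg adjustment over all genes tested, threshold 0.05). The SE given with a fold change was derived from that change and its F statistic, since the test reports none. The 95% intervals use the normal distribution and are narrower than the F test would give. The 17 libraries other than the NOD males were fitted as 3 cell states. A fit of 12 iPSC in 6 groups, without 129S1/SvImJ in 2iS, gave the NOD male comparison, and a fit of 12 iPSC in 6 groups, without the NOD males, gave strain and medium. CPM are relative to effective library sizes, the gene counts of a library times its TMM factor (0.683 to 1.08 in the 17 libraries, lowest in the 129 EpiSC, and 1.50 and 1.53 in the NOD males), whereas shares of gene counts are unscaled. Genes were matched to GENCODE M21 to find opposite-strand exons and exon lengths, and near copies were sought with blastn 2.17.0 (at least 95% identity over 50% of a transcript). Promoters came from RefSeq. Named genes were all those called in a comparison, the 3 most abundant of each complex, and the forms restricted to certain tissues, except 1 gene that enters the counts and fits but is not reported here by name. Others named as nearest the threshold or as extremes were chosen after their values were seen. The genes, lists and tests were chosen with earlier results of these data known. The lists were assembly factors, regulators, citric acid cycle enzymes, cytochrome c, and markers of naive, primed and shared pluripotency and of fibroblasts.

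Depth was 92996 to 567432 counts per library, and 3 counts were taken as the smallest detectable number, for counting error only. The same clone number in ESC/LIF and 2iS is the same clone per the labels, so the clone was also fitted as a replicate block; over 5677 genes, deviations of the pairs correlated by 0.0308. No replicates held identical values (chi-square per degree of freedom 1.41 to 2.90). The fits were tested on simulated data. Alternatives were DESeq2 1.42.0, its size factors, uniquely aligned pairs as library size, no filter, other sets of libraries, leaving out each library, the block, and genes without opposite-strand exons.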

Additional observations from a re-analysis of the deposited data

Results flagged for a closer look

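Among 28 sets of group and gene tested for a library far from the rest, 1 stood out. Atp5a1 in the WSB/EiJ iPSC in 2iS measured 353 CPM in female clone 28, against 287 to 293 CPM in the other 3 clones of the strain. The gap to the nearest clone was 0.910 of the range of the 4 clones, above Dixon's critical value for 4 samples. Chance alone gives about 1 such library in 20 sets, so the count is near that rate.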

How the results depend on the processing

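Most values kept their direction and side of the threshold: for single genes 442 did, 84 lost the call and 2 reversed, and for counts and shares 103 stayed within limits and 43 moved. In the NOD males Sdhb lost its call under 11 of 16 alternatives, Cox7a2 under 10, Ndufs1 under 10 besides its reversal, Atp5j2 under 9 and Ndufv1 under 7. Each of the 7 genes higher in iPSC than in EpiSC lost its call under 1 to 3 of 7 alternatives. With uniquely aligned pairs as library size, Atp5j and Ndufs1 reversed in the NOD males to 0.69 and 1.76, respiratory chain genes called were 1 (iPSC against ESC, Atp5f1), 18 (iPSC against EpiSC), 1 (ESC against EpiSC, Atp5j) and 48 (NOD males), and the share ratios were 1.43 (iPSC over ESC), 1.85 (iPSC over EpiSC), 5.63 (NOD males over iPSC) and 1.27 (2iS over ESC/LIF). That scaling moved the median of all genes from 0.04 to 0.34, 0.13 to 0.62, 0.11 to 0.29, 0.27 to 2.66 and, for NOD/ShiLtJ against WSB/EiJ females, 0.00 to -0.20. The respiratory chain median relative to it stayed at 0.69 against EpiSC and 0.50 in the NOD males. The share of all calls that were higher in the group named first moved with it from 14.8% to 60.4% (iPSC against ESC), 49.2% to 62.8% (ESC against EpiSC) and 45.9% to 25.8% (NOD/ShiLtJ against WSB/EiJ females).

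With no filter on low counts, 600 genes (1 of the respiratory chain, Cox7a2) were called between iPSC and ESC, 1874 between iPSC and EpiSC, and 2 respiratory chain genes (Cox7a1 and Cox7a2l) between ESC and EpiSC. DESeq2 called 1542 genes and 10 respiratory chain genes in the NOD males, 43 genes between NOD/ShiLtJ and WSB/EiJ females, 65 between 129S1/SvImJ and WSB/EiJ males and 47 between media. The 5 ESC and EpiSC libraries alone gave 328 genes. Leaving out each library gave 85 to 153 genes and 0 to 2 respiratory chain genes (iPSC against ESC), 587 to 944 and 1 to 4 (iPSC against EpiSC), 262 to 574 and 0 to 1 (ESC against EpiSC), 75 to 172 genes (NOD/ShiLtJ against WSB/EiJ), 58 to 129 (129S1/SvImJ against WSB/EiJ) and 62 to 105 (media). Without genes with opposite-strand exons the share ratios were 1.94 over EpiSC, 2.53 in the NOD males and 1.43 between media, and without Atp5f1, an alternative chosen after seeing the data, 1.91, 2.22 and 1.36. The replicate block by clone, on the 4 libraries alone, gave 188 genes and 0 of 13 respiratory chain genes between media. The cause of these changes was not tested.

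The small number of pairs counted on genes limits the low genes most. At 13.7 to 33.9 CPM per 3 counts, most of the 84 genes held few reads in a library. Of the 84, 29 to 48 were tested in a comparison. With 2 EpiSC and 3 ESC lines, small differences between them could be missed.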

Other observations

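The summed levels of further pluripotency markers are given as values, without a test of the sums. Primed markers measured 92.2 to 216 CPM in the 12 other iPSC, 143 to 266 CPM in the ESC and 317 and 535 CPM in the EpiSC. Markers shared by naive and primed cells measured 928 to 1434 CPM in the 12 other iPSC, 779 to 974 CPM in the ESC and 550 and 789 CPM in the EpiSC.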
